A study of Mus musculus with 9 samples.

Results

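Innate immune receptors of myeloid cells were followed in mouse lung grafts, as 10 genes given by name and chosen with earlier results of these data known: the triggering receptors Trem1, Treml2 and Trem2, the C-type lectin receptors Clec4d, Clec4e, Clec4n and Clec7a, the adhesion receptor Ceacam1, and the formyl peptide receptors Fpr1 and Fpr2. They are 10 of the 23944 genes counted, and all 10 passed the filter on low counts that left 15834 genes for testing. RNA came from whole left lungs of wild-type adult mice. The 3 naive lungs were from C57BL/6 mice with no transplantation. The 3 cold-ischemia grafts were C57BL/6 donor lungs held at 0 °C for 24 h, placed into Balb/C recipients and reperfused for 2 h. The 3 shock grafts came from donors that went through hypovolemic shock for 4 h, at an arterial pressure of 15 ± 5 mmHg on average, and then recovered for 20 h, after which the lungs had the same storage, recipient strain and reperfusion. All grafts thus crossed a strain barrier and were perfused with recipient blood, and the counts do not part donor from recipient transcripts.

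The study's question was what shock in the donor adds to the injury of the stored and reperfused lung. The receptors described here let neutrophils, monocytes and macrophages sense microbes and damaged tissue. TREM-1, TREM-2 and most of the C-type lectins have short tails or none that signal, and work through adaptors with an ITAM motif (DAP12, encoded by Tyrobp, or the Fc receptor gamma chain, encoded by Fcer1g), the kinase Syk and the CARD9, BCL10 and MALT1 complex. Dectin-1, encoded by Clec7a, carries its own ITAM-like motif, and the formyl peptide receptors are G protein-coupled receptors of neutrophil chemotaxis. The name "activating" does not cover every gene of the group, since CEACAM1 bears inhibitory motifs and TREM-2 is known for restraining inflammatory signalling as well as for lipid sensing.

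The group is spread over 3 chromosomes (mm10, coordinates of the deposited tables). Trem1 (chr17:48232768-48246924), Treml2 (chr17:48300038-48312534) and Trem2 (chr17:48346401-48354147) lie in this order in a cluster on the plus strand. Clec4n (chr6:123229843-123247021, plus strand), Clec4d (chr6:123262107-123275268, plus strand) and Clec4e (chr6:123281789-123289870, minus strand) form a second cluster, with Clec7a farther along the chromosome (chr6:129461591-129472777, minus strand). Fpr1 (chr17:17876471-17883940, minus strand) and Fpr2 (chr17:17887824-17893952, plus strand) are neighbours that point away from each other, and Ceacam1 stands alone on chr7:25461702-25477625 (minus strand). All 10 are listed as protein-coding. In GENCODE M21 an exon of Fpr2 shares 48 bases with an exon of Fpr3 on the same strand, so its counts are uncertain as far as the counting used such an annotation. Fpr3 was not analysed here.

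The promoters of the 3 genes with the largest rise (Clec4e, Clec4d, Trem1) and of 2 genes from the same clusters or family that were not called in grafts (Trem2, Clec7a) are printed to show how neighbouring genes with different behaviour begin. RefSeq (GRCm38.p6) gave a start for 8 of the 10 genes. Treml2 and Clec4n had no entry. A single start was used per gene, and other starts were not searched. It was matched by 7 of 7 GENCODE transcripts for Clec4e, 4 of 4 for Clec7a and 2 of 3 for Clec4d. For Trem1 it was matched by 1 of 2, for Trem2 by 1 of 4 and for Ceacam1 by 1 of 11. The windows hold the 250 bases before the start, 5′ to 3′ in the direction of transcription, at chr6:123289872-123290121 (minus strand) for Clec4e, chr6:123261857-123262106 (plus strand) for Clec4d, chr17:48232489-48232738 (plus strand) for Trem1, chr17:48346151-48346400 (plus strand) for Trem2 and chr6:129472780-129473029 (minus strand) for Clec7a. Capitals mark matches, on either strand, to the motifs GAGGAA (a core of the myeloid factor PU.1), TTGCNNAA (C/EBP), TGANTCA (AP-1) and TATAAA (a core promoter element).
Clec4e: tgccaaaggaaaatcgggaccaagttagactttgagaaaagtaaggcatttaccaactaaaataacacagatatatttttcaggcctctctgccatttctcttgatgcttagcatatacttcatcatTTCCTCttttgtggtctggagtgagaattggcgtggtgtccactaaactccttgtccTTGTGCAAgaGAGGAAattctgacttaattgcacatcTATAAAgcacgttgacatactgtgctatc
Clec4d: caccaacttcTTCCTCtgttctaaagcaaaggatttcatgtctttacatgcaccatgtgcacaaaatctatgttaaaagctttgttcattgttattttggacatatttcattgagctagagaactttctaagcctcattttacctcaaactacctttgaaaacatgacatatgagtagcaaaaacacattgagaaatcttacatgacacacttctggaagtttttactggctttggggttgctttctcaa
Trem1: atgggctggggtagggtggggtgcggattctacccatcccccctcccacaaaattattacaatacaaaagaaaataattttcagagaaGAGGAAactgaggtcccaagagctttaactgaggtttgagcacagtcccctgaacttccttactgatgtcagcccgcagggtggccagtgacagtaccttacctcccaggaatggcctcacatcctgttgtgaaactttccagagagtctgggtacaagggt
Trem2: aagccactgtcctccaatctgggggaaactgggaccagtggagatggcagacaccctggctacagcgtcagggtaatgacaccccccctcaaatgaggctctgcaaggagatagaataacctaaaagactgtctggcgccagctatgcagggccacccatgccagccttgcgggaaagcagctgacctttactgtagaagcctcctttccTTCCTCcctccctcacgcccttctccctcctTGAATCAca
Clec7a: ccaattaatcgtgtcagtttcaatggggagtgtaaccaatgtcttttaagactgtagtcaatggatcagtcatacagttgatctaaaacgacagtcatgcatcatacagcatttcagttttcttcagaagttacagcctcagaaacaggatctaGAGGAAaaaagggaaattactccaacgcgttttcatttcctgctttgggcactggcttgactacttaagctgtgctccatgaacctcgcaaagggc

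GAGGAA or its complement was found in 7 of the 8 promoters, against 23.1% of 27025 mouse promoters of the same length. Fpr1 was the promoter that lacked it. In Clec4e the motif occurred at 123 to 118 and at 56 to 51 bases before the start, a C/EBP match stood at 66 to 59 bases and the core promoter element at 29 to 24 bases. Clec4e was the single promoter of the 8 with a C/EBP match (9.55% of all promoters), and Trem2 the single one with an AP-1 match, 9 to 3 bases before its start (6.87%). TATAAA occurred in 3 of 8 (13.0% of all), farther from the start in Fpr2 (130 to 125 bases) and Fpr1 (227 to 222 bases) than in Clec4e. A kappa-B motif occurred in 0 of 8 (1.4% of all). PU.1 matches were thus present both in genes that rose and in the 2 that were not called. A match is a string of letters in this window and shows no binding.

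Total counts ran from 18913487 to 34986276 per library, and 3 reads, taken as the floor, were worth 0.0759 to 0.149 CPM (counts scaled to TMM-adjusted library sizes). The lung identity of the libraries was plain, with 8 epithelial markers summing to 32228 to 48102 CPM in every library, led by Scgb1a1 and Sftpc. The naive libraries cite records of another series in their labels, so when they were prepared and which group they belong to cannot be told apart. The titles and the authors' tables disagree on 2 grafts: the library titled cold-ischemia replicate 2 stands among the shock libraries in the tables, and the one titled shock replicate 3 among the cold-ischemia libraries. Titles were followed here, and results on shock against cold ischemia are given both ways. Over all genes the counts of cold-ischemia replicate 1 and shock replicate 3 were the closest of any graft pair (chi-square of 21.8 per degree of freedom), followed by cold-ischemia replicate 2 and shock replicate 1 (37.1). The tables place each of these pairs in 1 group and the titles do not. The set of 6 grafts compared with the 3 naive lungs is the same either way, and so are its counts. The fitted changes and their errors depend in part on the groups. Against naive lungs, Treml2 rose in all grafts by 1.49 ± 0.19 by the titles and 1.57 ± 0.34 by the tables (log2, SE). For Ceacam1 the values were 1.63 ± 0.18 and 1.69 ± 0.30.

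Across the group, 8 of the 10 receptor genes rose in grafts against naive lungs and 0 fell (edgeR quasi-likelihood test, Benjamini-Hochberg adjusted p under 0.05 over 15834 genes), where 22.1% of all tested genes were called higher and 19.6% lower. Clec4e, Clec4d and Trem1 rose the most, by 38-fold or more. Fpr1 and Fpr2 rose by 6.67-fold and 7.31-fold, and Ceacam1, Treml2 and Clec4n by 1.84-fold to 3.09-fold. Clec7a and Trem2 were not called. The same 8 genes were higher in each of the 6 grafts than in every naive lung (20.9% of all genes were). The median log2 fold change of the 10 genes was 2.18, and that of all genes tested was -0.05. In whole-lung RNA, more cells of a type and more transcript per cell cannot be told apart.

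**Figure D1:**
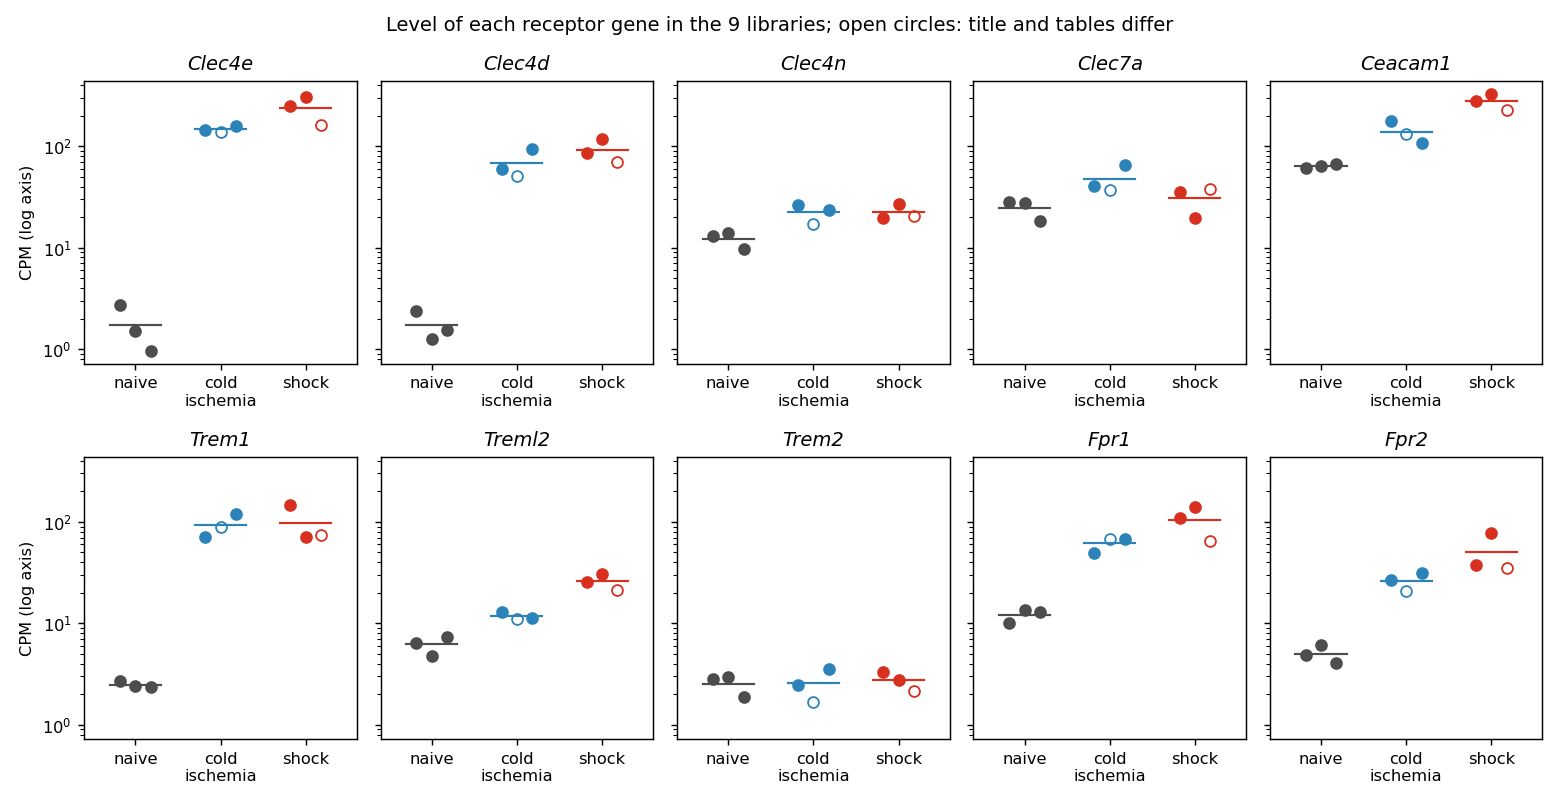
Level of each of the 10 receptor genes in each library, in CPM on a log axis, with naive lungs in grey, cold-ischemia grafts in blue and shock grafts in red; bars are group means and open circles the 2 libraries whose title and tables differ. For Clec4e, Clec4d and Trem1 the naive lungs lie at 2.72 CPM or lower and all grafts at 51.2 CPM or higher, while the Trem2 and Clec7a grafts overlap the naive lungs.

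Trem1 encodes TREM-1, the DAP12-coupled receptor of neutrophils and monocytes that amplifies responses to microbial products. It stood at 2.69, 2.40 and 2.35 CPM in naive replicates 1 to 3, at 70.6, 89.6 and 121 CPM in the cold-ischemia grafts and at 145, 70.4 and 73.9 CPM in the shock grafts. The naive lungs were close to one another and far below every graft, and the ranges of both kinds of graft overlapped. The log2 fold change of Trem1 in grafts was 5.26 ± 0.33 (SE, n = 6 grafts and 3 naive lungs, edgeR adjusted p = 1.88e-06), and it was 5.23 in cold ischemia and 5.28 in shock, each against the same naive lungs.

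Trem2, the lipid-sensing receptor of tissue macrophages that uses the same adaptor, behaved otherwise. Its level was 2.80, 2.94 and 1.87 CPM in naive lungs, 2.45, 1.68 and 3.55 CPM in cold-ischemia grafts and 3.31, 2.74 and 2.17 CPM in shock grafts. The 3 groups overlapped throughout. The difference between grafts and naive lungs was 0.07 ± 0.29 (log2, SE, edgeR adjusted p = 0.875), on 41 to 98 reads per library. With an error of this size, moderate changes would not have been detectable. On the CPM scale, which does not correct for length, the log2 ratio of Trem1 to Trem2 was -0.01 ± 0.26 in naive lungs (SD, n = 3). In grafts this ratio was 4.90 ± 0.36 (SD, n = 6), from 4.45 to 5.37 in single grafts, and the groups did not overlap. The difference in the ratio was 4.91 (exact permutation test, two-sided p = 0.0238, which is the smallest that 84 regroupings can give, adjusted p = 0.0357 over 3 ratios). That difference follows from the levels of Trem1 and Trem2 given above and is no separate result.

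Treml2 encodes TLT-2, a relative found on neutrophils, macrophages and B cells. Counts were equal to 6.41, 4.79 and 7.38 CPM in naive lungs, 12.9, 11.1 and 11.2 CPM in cold-ischemia grafts and 25.3, 30.9 and 21.5 CPM in shock grafts. By the titles the 3 groups formed 3 steps without overlap. In all grafts together the gene rose by 1.49 ± 0.19 (log2, SE, edgeR adjusted p = 0.000115).

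Clec4e encodes Mincle, the lectin that binds mycobacterial glycolipid and the nuclear protein SAP130 of dying cells, and it had the largest fold change of the group. Naive lungs held 2.72, 1.49 and 0.96 CPM of its transcript, cold-ischemia grafts 143, 139 and 158 CPM, and shock grafts 247, 303 and 161 CPM. The naive values rested on 33 to 95 reads and the graft values on 3155 to 6078 reads. Grafts exceeded naive lungs by a log2 fold change of 6.75 ± 0.39 (107.8-fold, SE, edgeR adjusted p = 1.24e-06), which was rank 43 of the 15834 genes tested.

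Clec4d encodes MCL, the partner with which Mincle is co-expressed and forms a complex. The neighbour of Clec4e read 2.37, 1.27 and 1.54 CPM in naive lungs, 59.6, 51.2 and 94.6 CPM in cold-ischemia grafts and 86.0, 118 and 70.4 CPM in shock grafts. Every graft was far above every naive lung, and cold-ischemia replicate 3 was the highest of its group. Its log2 fold change was 5.50 ± 0.34 (45.1-fold, SE, edgeR adjusted p = 1.42e-06).

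Clec4n, the third gene of the cluster, encodes Dectin-2, a receptor for fungal mannans. It was present at 12.9, 13.9 and 9.71 CPM in naive lungs, at 26.2, 17.2 and 23.7 CPM in cold-ischemia grafts and at 19.8, 27.1 and 20.3 CPM in shock grafts. The lowest graft stood just above the highest naive lung. Clec4n rose by 0.88 ± 0.19 (1.84-fold, log2, SE, edgeR adjusted p = 0.00353), and the values against naive lungs were the same for cold ischemia and for shock (0.88 each). Within this cluster of 3 genes the rises therefore differed in size, from 1.84-fold to 107.8-fold.

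Clec7a encodes Dectin-1, the beta-glucan receptor of macrophages, dendritic cells and neutrophils. The naive lungs gave 28.0, 27.5 and 18.2 CPM, the cold-ischemia grafts 40.4, 36.9 and 66.0 CPM and the shock grafts 35.3, 19.6 and 38.2 CPM. Shock replicate 2 lay among the naive lungs, and the other 5 grafts lay above them. Over all grafts the log2 fold change was 0.65 ± 0.26 (SE, edgeR adjusted p = 0.0715), and it became 0.77 (adjusted p = 0.0170) without shock replicate 2. Cold-ischemia grafts alone were called higher, by 0.96 ± 0.30 (adjusted p = 0.0331). That call was lost when any of the naive lungs was left out (adjusted p from 0.0588 to 0.112) or without cold-ischemia replicate 3 (0.65, adjusted p = 0.121).

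The balance of Mincle and Dectin-1 transcripts shifted toward Mincle in grafts. Which transcript was the more abundant in grafts depended on the gene length used and on the graft group, as given below. On the CPM scale the log2 ratio of Clec4e to Clec7a was -3.55 ± 0.35 in naive lungs (SD, n = 3) and 2.29 ± 0.94 in grafts (SD, n = 6), where it ran from 1.26 in cold-ischemia replicate 3 to 3.92 in shock replicate 2. The difference of 5.84 had the smallest p that the exact permutation test could give (two-sided p = 0.0238, adjusted p = 0.0357 over 3 ratios). The separation follows from the levels of each gene given above, so this test adds no separate result.

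Ceacam1 encodes an adhesion receptor of epithelium, endothelium and leukocytes with inhibitory motifs in its long-tailed form. Naive lungs held 61.2, 63.4 and 66.3 CPM, and grafts held 177, 132 and 107.7 CPM after cold ischemia and 281, 328 and 225 CPM after shock. Naive lungs differed little from one another, and the titled groups again formed 3 steps without overlap. The rise over all grafts was 1.63 ± 0.18 (3.09-fold, log2, SE, edgeR adjusted p = 5.00e-05). Among markers of the other cell types that carry CEACAM1, 3 of 8 epithelial markers were higher in grafts (Krt8, Cdh1 and Epcam, by 0.96 to 2.33 on the log2 scale) and 0 lower, and 1 of 8 endothelial markers was higher (Cldn5 by 0.59) and 3 lower (Tek, Kdr and Egfl7). The lists are short, and over all tested genes 22.1% were called higher and 19.6% lower. The part of these cell types in the level of Ceacam1 was not tested. Its paralog Ceacam2 had too few reads to be tested, with 26 over the 3 naive libraries.

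Fpr1, the high-affinity receptor for bacterial and mitochondrial formyl peptides, was at 9.99, 13.7 and 12.8 CPM in naive lungs, 49.9, 68.2 and 68.5 CPM in cold-ischemia grafts and 110, 141 and 65.1 CPM in shock grafts. Fpr2, whose product binds formyl peptides, annexin A1 and serum amyloid A, was at 4.84, 6.11 and 4.02 CPM in naive lungs, 26.6, 20.9 and 31.0 CPM in cold-ischemia grafts and 37.4, 78.4 and 35.1 CPM in shock grafts. Both were above the naive range in all 6 grafts, and shock replicate 2 was the highest library for each. The log2 fold changes were 2.74 ± 0.26 for Fpr1 (SE, edgeR adjusted p = 1.87e-05) and 2.87 ± 0.31 for Fpr2 (SE, edgeR adjusted p = 5.24e-05). The log2 ratio of Fpr2 to Fpr1 was -1.21 ± 0.31 in naive lungs and -1.16 ± 0.37 in grafts (SD, n = 3 and 6), and the groups overlapped (exact permutation test, two-sided p = 0.762, adjusted p = 0.762 over 3 ratios).

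The 2 graft groups were next set against the naive lungs one at a time. These comparisons share the 3 naive libraries, so their values are given side by side and not as independent results. After cold ischemia 9 of the 10 genes were called higher (17.6% of all genes), with Clec7a as the ninth, and after shock 8 of 10 (21.9% of all genes). The values in cold ischemia and in shock were 6.41 and 7.10 for Clec4e, 5.29 and 5.71 for Clec4d, 2.36 and 3.12 for Fpr1, 2.40 and 3.34 for Fpr2, 1.13 and 2.13 for Ceacam1, 0.91 and 2.06 for Treml2, and 0.96 and 0.34 for Clec7a (log2 fold changes). Trem1 and Clec4n had nearly equal values in both. In the authors' deposited tables, which use their own grouping, Clec4e stood at log2 fold changes of 6.28 after cold ischemia and 6.74 after shock, and Clec7a had adjusted p-values of 0.000245 and 0.355.

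**Figure D2:**
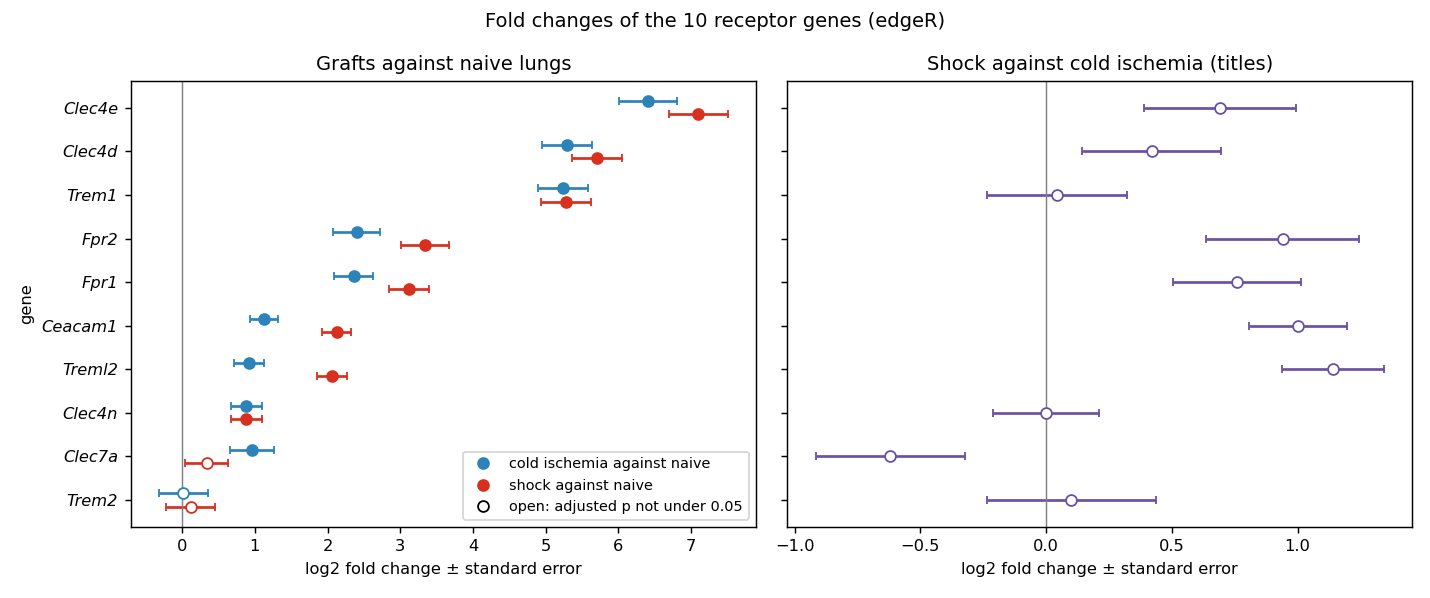
Log2 fold changes of the 10 genes from edgeR, with standard errors, for each graft group against the same naive lungs (left) and for shock against cold ischemia by the titles (right); filled points have an adjusted p under 0.05. On the left Clec4e, Clec4d and Trem1 lie at 5.23 or higher, and on the right all points are open, from Clec7a at -0.62 to Treml2 at 1.14.

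Shock grafts were then compared directly with cold-ischemia grafts, which asks what donor shock adds. By edgeR 0 of the 10 genes were called, as were 0 of the 15834 genes, and 5 of the 10 had an unadjusted p under 0.05 (7.21% of all genes). DESeq2 called 2 of the 10 higher, Treml2 (1.15, adjusted p = 0.00186) and Ceacam1 (1.01, adjusted p = 0.0123), where it called 0.0449% of all its tested genes higher. With edgeR, Treml2 was higher in shock by 1.14 ± 0.20 (log2, SE, adjusted p = 0.679) and Ceacam1 by 1.00 ± 0.19 (adjusted p = 0.679). By the titles, Treml2, Ceacam1, Clec4e and Fpr2 were higher in each shock graft than in every cold-ischemia graft, 4 of 10 genes against 5.45% of all genes.

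These differences depended on which grafts count as shock. Under the grouping of the authors' tables the difference was 0.56 for Treml2 and 0.54 for Ceacam1, and 0 of the 10 genes were higher without overlap (10.9% of all genes). The single values show where the groupings part. The library titled shock replicate 3 read 21.5 CPM for Treml2 and 225 CPM for Ceacam1, above every library titled cold ischemia, and the tables place it with those. Clec7a was the 1 gene lower in all shock than in all cold-ischemia libraries under the tables' grouping, at 19.6 to 36.9 CPM against 38.2 to 66.0 CPM (12.4% of all genes were lower in this way). In the authors' deposited table of this comparison no receptor gene had an adjusted p under 0.05, the lowest being 0.0816 for Fpr1. Trem1, Clec4n and Trem2 differed by 0.04 ± 0.28, 0.00 ± 0.21 and 0.10 ± 0.34 by the titles (log2, SE, edgeR).

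Levels of different genes were compared per kilobase with the deposited FPKM. In naive lungs the order was Ceacam1 (19.8 ± 0.37 FPKM, SD, n = 3), Clec7a (12.6 ± 3.1), Fpr1 (10.6 ± 1.6), Clec4n (10.1 ± 2.0) and Fpr2 (5.12 ± 1.1), and the means of the other 5 lay between 0.419 and 1.59 FPKM. Clec7a, Fpr1 and Clec4n did not differ beyond their spread. In grafts the order was Fpr1 (58.5 ± 23 FPKM, SD, n = 6), Clec4d (55.6 ± 17), Ceacam1 (51.4 ± 20), Clec4e (36.9 ± 12), Fpr2 (31.2 ± 16) and Trem1 (29.5 ± 9.6), each within the spread of its neighbour, followed by Clec7a (16.1 ± 6.5), Clec4n (14.8 ± 2.5), Treml2 (3.85 ± 1.7) and Trem2 (0.51 ± 0.14). The groups differed in this order. After cold ischemia it was led by Clec4d (48.4 FPKM), Fpr1 (44.3) and Ceacam1 (34.7), and after shock by Fpr1 (72.7), Ceacam1 (68.1) and Clec4d (62.8). The summed FPKM of the 10 genes was 56.6 to 68.3 in naive lungs and 221 to 434 in grafts.

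The make-up of this sum changed. Clec4d, Clec4e and Trem1 made up 2.39%, 0.65% and 1.53% of it in naive lungs (means of 3) and 18.6%, 12.3% and 10.3% in grafts (means of 6). Clec7a went from 19.7% to 5.89%, Clec4n from 15.8% to 5.19% and Ceacam1 from 31.5% to 17.1%. Fpr1 was at 16.9% and 19.2%, with ranges that overlapped. These orders and shares depended on the gene length used. The length in the deposited tables was 1.91 times that of the principal GENCODE transcript for Clec4e, 2.15 times for Treml2, 3.22 times for Clec7a, 4.40 times for Trem2 and 1.30 times for Ceacam1. It was equal for Trem1, Fpr1 and Fpr2, and within 1.14 times for Clec4d and Clec4n. Scaled to the principal transcript, a setting chosen after seeing the data, Clec7a came first in naive lungs (40.5 ± 9.9, SD, n = 3), before Ceacam1 (25.7 ± 0.48). In all grafts together Clec4e then came first (70.4 ± 24, SD, n = 6), before Ceacam1 (66.9 ± 26) and Fpr1 (58.5 ± 23). Neither graft group alone had Clec4e first. After cold ischemia Clec7a (63.7 ± 23, SD, n = 3) came before Clec4e (54.8 ± 5.0). After shock Ceacam1 (88.6 ± 16, SD, n = 3) came before Clec4e (86.0 ± 25), within their spread. On that scale Clec7a went from 38.9% of the sum to 14.2%, and Clec4e from 0.76% to 17.7%.

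**Figure D3:**
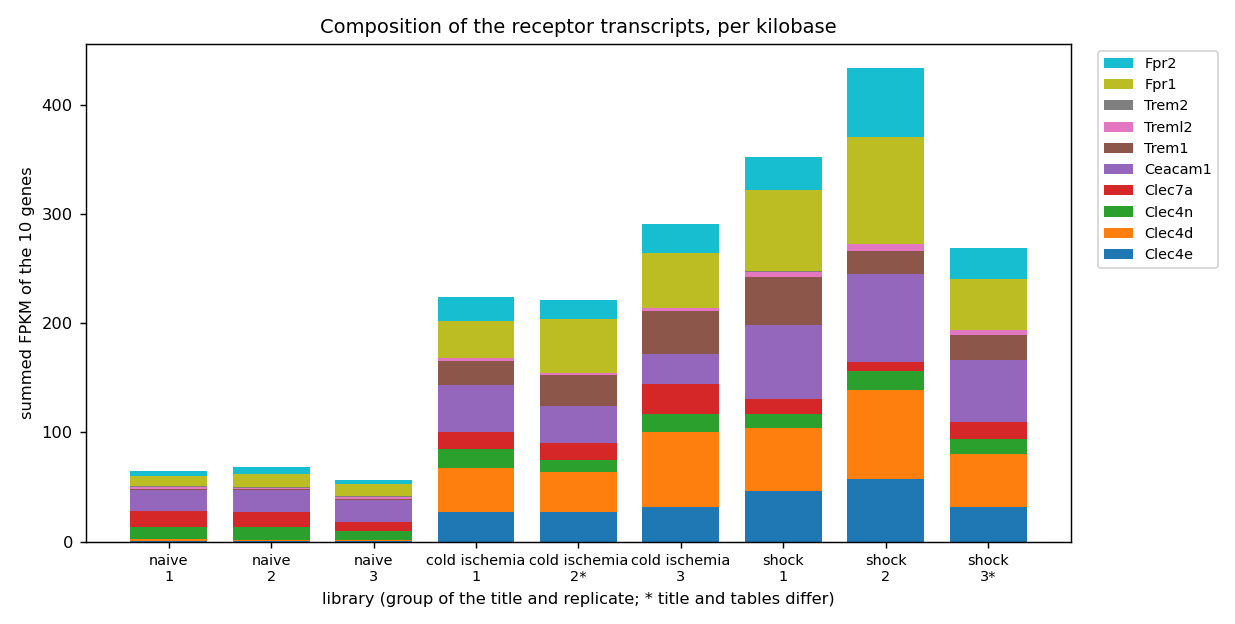
Stacked FPKM of the 10 receptor genes in each library, grouped by title, with an asterisk on the 2 libraries whose title and tables differ. The naive bars end between 56.6 and 68.3 FPKM and are mostly Ceacam1, Clec7a, Fpr1 and Clec4n, while the graft bars end between 221 and 434 FPKM with wide Clec4d, Clec4e, Trem1, Fpr1 and Fpr2 segments.

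Neutrophil markers also rose in grafts, by a median log2 fold change of 4.63, against 2.18 for the receptor genes. All 14 listed markers rose in grafts, and their summed level was 65.0 to 90.7 CPM in naive lungs, 1195 to 2286 CPM in cold-ischemia grafts and 1876 to 3314 CPM in shock grafts. None of the 14 was at 0 in all libraries, and S100a9, S100a8 and Retnlg had the highest mean CPM. Monocyte and macrophage markers summed to 6182 to 6976 CPM in naive lungs and 4145 to 7518 CPM in grafts, with 3 of 12 higher, Cd68 and Ly6c2 among them, and 2 lower (Ccr2, Cx3cr1), near the 22.1% and 19.6% of all genes. Most of that sum was Lyz2 (6251 CPM in naive lungs and 5661 CPM in grafts, means), so it says little of the other 11 markers. Of 8 alveolar macrophage markers 1 rose (Marco) and 1 fell (Car4), and of 8 lymphocyte markers 0 rose and 3 B cell genes fell. The part of cell make-up in the receptor changes was not tested.

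To place each receptor beside these markers, the mean log2 level of the 14 neutrophil markers was subtracted from that of the gene in each library. The marker mean itself rose by 4.09. Relative to it Clec4e was higher in grafts by 2.35 and Clec4d by 1.06, with no overlap between grafts and naive lungs. Trem1 differed by 0.85 with overlapping groups. The markers Elane, Mpo and Ly6g had under 30 reads each over the 3 naive libraries. Without them, a setting chosen after seeing the data, the mean of the remaining 11 markers rose by 4.56, Clec4e was higher by 1.88 without overlap, and Clec4d (0.59) and Trem1 (0.38) overlapped. The edgeR log2 fold changes of the markers Il1r2 (6.65), Ly6g (6.39), Ngp (5.96) and Mmp8 (5.72) were above the 5.50 of Clec4d. The other 7 genes were lower relative to the markers in all 6 grafts with either set, with differences of -1.39 for Fpr2, -1.44 for Fpr1, -2.50 for Ceacam1, -2.66 for Treml2, -3.24 for Clec4n, -3.48 for Clec7a and -4.05 for Trem2 against the 14 markers. Differences on this scale are descriptions of these libraries.

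**Figure D4:**
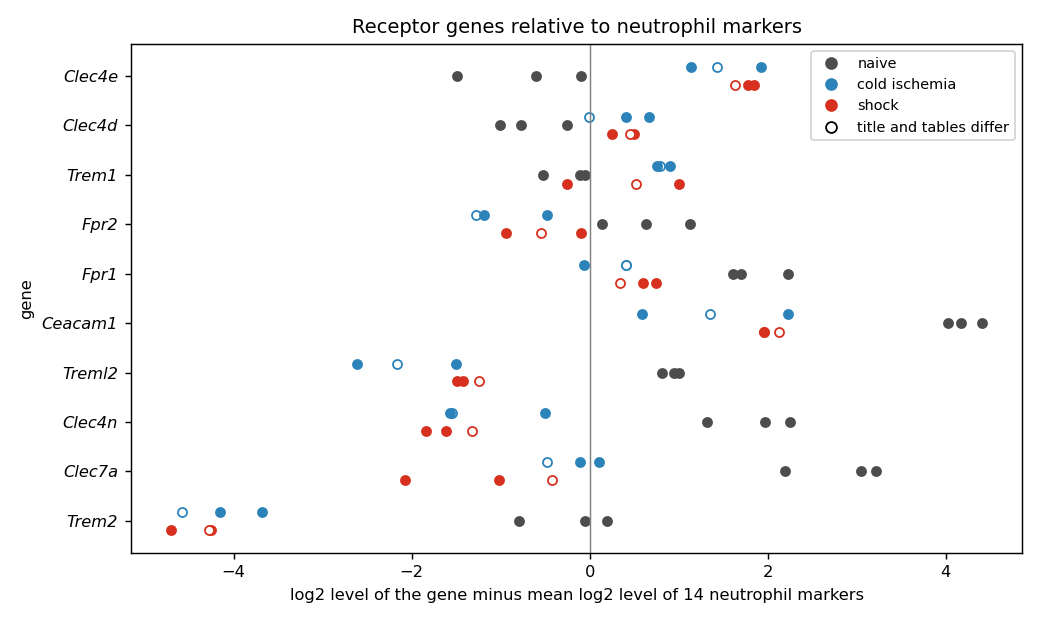
Log2 level of each receptor gene minus the mean log2 level of 14 neutrophil markers, by library, with naive lungs in grey, cold-ischemia grafts in blue, shock grafts in red and open circles for the 2 libraries whose title and tables differ. Against these 14 markers Clec4e and Clec4d lie further right in grafts than in naive lungs, Trem1 overlaps, and the other 7 genes lie further left in grafts.

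Adaptors, kinases and other genes through which these receptors signal were counted next, each list beside the 22.1% of all genes called higher in grafts and the 19.6% called lower. Of 18 genes of ITAM and G protein signalling, 11 were called higher and 0 lower, with a median log2 fold change of 0.85 (-0.05 for all genes). Malt1 (2.21 ± 0.15, edgeR adjusted p = 1.97e-06), Bcl10 (1.87 ± 0.13) and the kinase gene Syk (1.80 ± 0.15) had the smallest adjusted p. Btk and Lat2 were not called (-0.04 and -0.02). The adaptor genes, singled out with their values known, read 0.99 ± 0.23 for Tyrobp (37.0 to 74.3 CPM, naive and graft means, adjusted p = 0.00553) and 1.13 ± 0.20 for Fcer1g (32.4 to 71.7 CPM, adjusted p = 0.000989). Card9, the scaffold of the complex that holds BCL10 and MALT1, was singled out in the same way and read -0.35 ± 0.16 (adjusted p = 0.102).

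Of 14 genes for inhibitory receptors and phosphatases 9 were called higher and 0 lower, again beside 22.1% and 19.6% of all genes, with a median of 1.16. Lilrb4 (3.0 ± 0.24), Cd33 (2.44 ± 0.24), Cd300lf (2.35 ± 0.25) and Ptpn11, which encodes the phosphatase SHP-2 (1.04 ± 0.13, edgeR adjusted p = 9.11e-05), had the smallest adjusted p. Ptpn6, which encodes SHP-1, a partner of CEACAM1, and Inpp5d were not called (0.15 and -0.05). Of 18 activating receptor genes of other families, 15 were called higher and 0 lower, with a median of 1.71. These were led by the endotoxin co-receptor gene Cd14 (4.73 ± 0.22), Tlr2 (3.79 ± 0.19), the platelet-activating factor receptor gene Ptafr (4.40 ± 0.24) and the DAP12-coupled lectin gene Clec5a (3.07 ± 0.28), while Cd36 and Fcgr1 were not called (-0.25 and 0.58).

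Ligand genes expressed in the lung were called higher in 7 of 10 cases and lower in 0, with a median of 1.47 (22.1% and 19.6% of all genes). They include genes with other main roles, Actb (0.91) and Sap130 (0.42), and the acute-phase gene Saa3 (5.22). Cd177 (3.74 ± 0.29) and Pglyrp1 (2.05 ± 0.25) encode reported partners of TREM-1, and Anxa1 (2.02 ± 0.18) and Camp (5.50 ± 0.79, edgeR adjusted p = 0.000627) encode ligands of FPR2. Cd177 is also in the list of neutrophil markers. Hmgb1, and Apoe, a ligand of TREM-2, were not called (-0.17 and -0.32).

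Relatives of the receptors in the same gene families were called in both directions. Of 22 genes listed, 19 were in the tables and 15 could be tested, with 6 called higher, 2 lower and a median of 0.56. Beside 22.1% and 19.6% of all genes, the 2 lower are no more than the background share. In the TREM cluster Trem3 rose by 3.92 ± 0.30 and Treml4 by 1.84 ± 0.28, while Treml1 was not called (0.78). Among lectins Olr1 (2.23 ± 0.34), Clec4a1 (1.96 ± 0.32) and Clec4a2 (1.15 ± 0.33) rose. Clec1a and Clec9a fell, by 2.28 ± 0.44 (edgeR adjusted p = 0.00332) and 2.31 ± 0.47 (adjusted p = 0.00418). Clec9a, a receptor of dendritic cells for dead cells, was at 33.7 CPM in naive lungs and 7.03 CPM in grafts. Ceacam10 rose by 3.75 ± 0.56 from 0.106 CPM. Between shock and cold ischemia edgeR called 0 of all 15834 genes, so the 0 called in these 5 lists is no separate result.

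**Figure D5:**
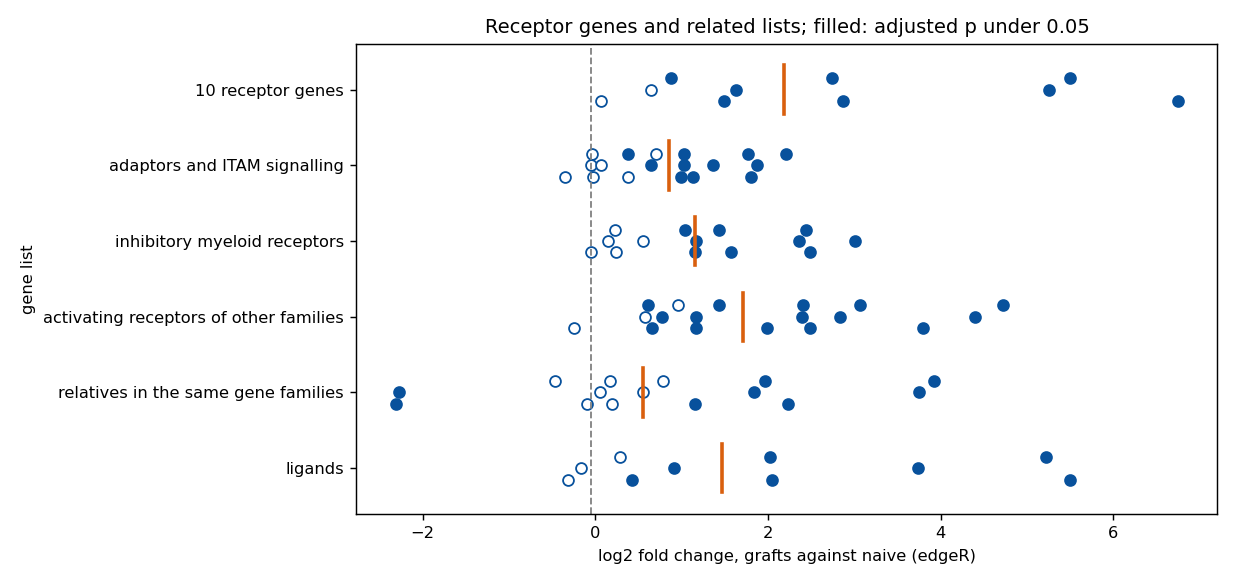
Log2 fold change of each gene in grafts against naive lungs (edgeR), for the 10 receptor genes and 5 related lists; filled points have an adjusted p under 0.05, orange bars are list medians and the dashed line is the median of all genes tested, -0.05. The receptor genes have a median of 2.18 and the widest upper range, and Clec1a and Clec9a are the filled points left of 0.

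The gene most like each receptor across the 9 libraries was found by the root mean square difference of centred log2(CPM + 0.5) profiles. Clec4d was nearest to S100a9 (0.24), Retnlg and S100a8, which are genes of neutrophils. Clec4e was nearest to Il1b (0.36), the interleukin-1 beta gene, and Trem1 to Nlrp3 (0.21), the inflammasome sensor gene. Treml2 and Ceacam1 were close to each other (0.20), with N4bp1 closer still to Ceacam1 (0.18). Fpr1 was nearest to Cd33 (0.21) and Fpr2 to Ifitm6 (0.20) and Clec5a (0.22). Clec7a was nearest to Insig1 (0.16), Stard4 and Ccr7, the first a regulator of sterol synthesis. Clec4n was nearest to Tmem185b (0.13) and Trem2 to Upb1 (0.11). The differences are smaller for genes that varied little, so they do not rank the receptors among themselves.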

How the data were processed

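Per the labels' protocols, total RNA of 9 left lungs was prepared with a NEBNext Ultra II kit and read in pairs on an Illumina NovaSeq (the RNA selection and strand setting are not given in the sources used here), and 3 tables, 1 for each pair of groups, were deposited. The tools that the submitters' processing notes list are HTSeq, STAR, STAR-Fusion, edgeR and DESeq2, with build mm10. Their versions and the gene annotation are not given in the sources used here. Per the file headers, the authors' tables hold read counts per gene without normalization, FPKM, a size-factor-normalized signal, and the log2 fold change, p-value and adjusted p-value of the authors' own comparison. Counts that recur in a pair of tables were identical.

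Counts of all 9 libraries were fitted together with edgeR 4.0.16 in R 4.3.3 (TMM scaling, filterByExpr, robust quasi-likelihood, 6 residual degrees of freedom), with groups from the sample titles. The titles give each of the 9 left lungs its own identifier. They do not say whether the lungs of a group came from separate experiments, so p-values measure only the spread between these lungs. Floors cover counting error only. The SE values of the edgeR fit and the SD values include the spread between these lungs. Ratios between genes used log2(CPM + 0.5) and exact permutation tests over samples (scipy 1.17.1). The script was tested on simulated data. DESeq2 1.42.0, other scalings, no filter, the tables' grouping, a replicate block, leaving out libraries, other gene lengths and fewer neutrophil markers were tried as alternatives.

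The 10 receptor genes and all lists were chosen with earlier results of these data known. Named genes were the 10 receptors, up to 4 genes with the smallest and 2 with the largest adjusted p of each pathway list, family relatives, the 3 most abundant markers of a cell type, and the nearest genes by profile. Some markers called in a list are named beside its count, and some genes that the rule names are not reported here. Same-numbered libraries of different groups correlated from -0.394 to 0.0965 in their deviations from group means, so the numbers were not treated as pairs.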

Additional observations from a re-analysis of the deposited data

How the results depend on the processing

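The count of receptor genes called in grafts was 8 or 9 of 10 in all 16 alternatives against naive lungs, with 0 lower. Over all genes, from 2687 of 15834 (upper-quartile scaling) to 3898 of 19762 (DESeq2) were called higher in grafts. From 2077 of 16185 (without naive replicate 2) to 5022 of 15834 (upper-quartile scaling) were called lower. Trem1, Clec4d, Clec4e, Clec4n, Treml2, Ceacam1, Fpr1 and Fpr2 were called in each, and Clec4e ranged from 6.44 to 7.27. Clec7a was called in 2 of the 16, with DESeq2 (0.67, adjusted p = 0.0367) and without shock replicate 2. In cold ischemia alone Clec7a was called in 11 of 17, and missed under upper-quartile scaling (0.77, adjusted p = 0.0764). With the replicate number as a block it read 0.90 (adjusted p = 0.0548), and 8 receptor genes were called in place of 9, as were 8 of 10 in grafts. That setting called 2501 of all 15834 genes higher in cold ischemia and 3253 in grafts. The replicate numbers are not shown to pair the samples.

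Between shock and cold ischemia DESeq2 called 2 receptor genes in place of 0. Over all genes that comparison gave 0 calls in edgeR, 8 in DESeq2, 36 higher and 84 lower under the tables' grouping, and 13 higher and 43 lower without the 2 libraries whose title and tables differ. The last setting was chosen after seeing the data. It left 8 receptor genes called in grafts, where it called 3471 of all 16068 genes higher.

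Upper-quartile scaling moved the median of all genes in grafts from -0.05 to -0.25 and the share of higher calls from 53.0% to 34.9% (lower calls from 3103 to 5022), and in cold ischemia from 57.3% to 39.2% (2073 to 3373) and shock from 55.2% to 36.6% (2818 to 4635). Leaving out single libraries lowered the count of genes called lower in cold ischemia to as few as 1285 (without naive replicate 2) and in shock to 1849 (same library), and in cold ischemia to 1332 without cold-ischemia replicate 1.

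Leaving out 1 library at a time moved the difference in the log2 ratio of Trem1 to Trem2 between 4.79 and 5.04, and that of Clec4e to Clec7a between 5.51 and 6.04. With fewer samples the smallest adjusted p that the exact test allows was 0.0536 to 0.107, so neither passed 0.05 there. Trem2 had the fewest reads of the receptors in grafts, 41 to 79 per library. Its standard error against naive lungs (0.29) was close to those of Clec7a (0.26) and Fpr2 (0.31), which had more reads.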
